A study of Caenorhabditis elegans
Pristionchus pacificus with 6 samples.

Results

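The genes described here were nearly without counts in the control strain and were counted in every library of the strain with reduced intestinal ploidy. They number 148 of the 41634 eligible C. elegans rows in the deposited table, which has 73268 rows for both species. RNA came from anterior intestines dissected from adult hermaphrodites 72 hours after egg lay at 20 °C. Control worms carried cdk-2::ZF::GFP, a tagged copy of a cell cycle kinase gene, and the zif-1(gk117) mutation. The CDK-2gut(-) worms carried both of these and also asp-1p::vhhGFP4::zif-1, in which the asp-1 promoter drives the adaptor ZIF-1 joined to a nanobody against GFP, so that tagged protein is handed to the degradation machinery. Intestine lysates were pooled per library, and the same amount of lysate from intestines of Pristionchus pacificus, another nematode, dissected at 96 hours, went into each. There were 3 libraries per strain, and the labels do not say whether they came from separate cultures.

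Intestinal cells of C. elegans copy their genomes repeatedly without dividing, so that adult cells hold many genome copies, and cyclin-dependent kinases drive these rounds of copying. The gut is also the worm's site of yolk production, digestion and much of its response to stress and microbes. Ploidy itself is not a quantity in the table, and the labels alone give it.

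The members were chosen by their values in these same libraries. Counts were divided by each library's C. elegans total to give CPM, the counts of a gene in every 1000000 C. elegans counts. A member had a control mean below 1 CPM and at least 3 CPM in each CDK-2gut(-) library. Eligibility depended on the identifier alone, and 5324 other C. elegans rows were left out by it. The contrast between strains was therefore fixed by the choice, and the levels below are a description with no test. At these depths 1 CPM stood for 9.43 to 10.7 counts in a control library and 3 CPM for 33.8 to 47.6 counts in a CDK-2gut(-) library. Identifiers in the file are not paired with gene symbols, and 0 of 73268 occur in the gene table used here. Most genes are therefore given by their row in the deposited table, no gene function is assigned, and no sequence is shown. Markers of germline, muscle, skin or other cells could not be read for the same reason, so the part of RNA from other tissues in these results was not tested. In bulk RNA of this kind, fewer cells of a type and less RNA per cell cannot be told apart.

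The summed level of the 148 genes was low in all 3 control libraries and, by plain CPM, almost the same in the 3 CDK-2gut(-) libraries. Control libraries 1, 2 and 3 held 62.8, 73.4 and 50.9 CPM over all 148 genes together. CDK-2gut(-) libraries 1, 2 and 3 held 2007, 2039 and 2013 CPM. The control mean was 62.4 ± 11.3 CPM (SD, n = 3), and that of CDK-2gut(-) was 2020 ± 16.9 CPM (SD, n = 3). The genes thus took 0.202% of C. elegans counts in CDK-2gut(-), a small part of the transcriptome, and 0.00624% in control. Per 1000000 P. pacificus counts, the same sums were 336, 331 and 141 in control and 10412, 9405 and 5589 in CDK-2gut(-). Libraries numbered 3 were the lowest of their strain on that scale, where the ratio of C. elegans to P. pacificus counts was 2.78 in both, against 4.51 to 5.35 in the other 4 libraries. The labels state no pairing, so libraries of the 2 strains were matched by number alone. Within numbers 1, 2 and 3, CDK-2gut(-) held 31.0, 28.4 and 39.6 times the control sum per P. pacificus count. By plain CPM these ratios were 32.0, 27.8 and 39.6. Scaling by the trimmed mean of M-values (TMM) over C. elegans genes, which discounts a few very abundant genes, gave lower ratios of 21.4, 23.4 and 29.8. On that scale the sums were 74.2, 75.5 and 64.3 CPM in control, with a mean of 71.3 ± 6.11 (SD, n = 3). They were 1587, 1766 and 1916 CPM in CDK-2gut(-), with a mean of 1756 ± 164 (SD, n = 3), so the near equality of the CDK-2gut(-) libraries holds for plain CPM and not for TMM sizes.

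**Figure D1:**
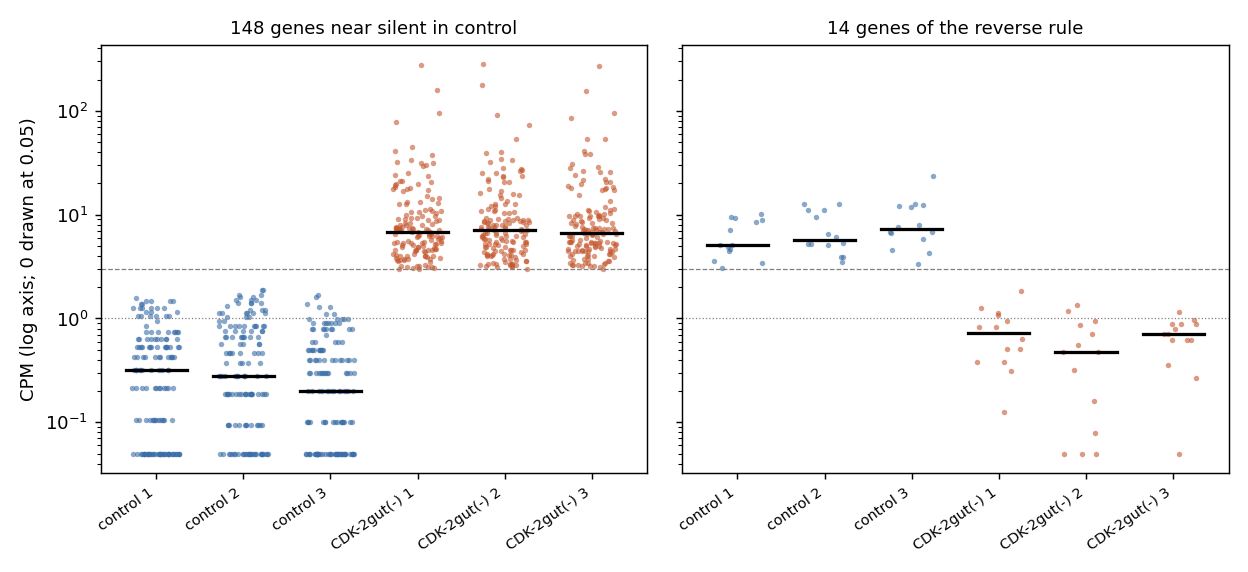
CPM of each gene (points, log axis, 0 drawn at 0.05) in each of the 6 libraries, for the 148 genes near silent in control (left) and the 14 genes of the reverse rule (right). Black bars are medians, and the dotted and dashed lines mark 1 and 3 CPM. On the left the CDK-2gut(-) medians lie between 6.70 and 7.12 CPM and the control medians between 0.199 and 0.318 CPM.

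Individual levels in CDK-2gut(-) were mostly modest. The median member had a mean of 6.87 CPM, and the quartiles were 4.69 and 11.3 CPM. A mean from 3 to 5 CPM was seen for 45 genes, from 5 to 10 CPM for 59, from 10 to 30 CPM for 34, from 30 to 100 CPM for 8 and above 100 CPM for 2. In raw counts the median member had 108.5, 89.5 and 75.5 counts in CDK-2gut(-) libraries 1, 2 and 3, and 3, 3 and 2 counts in control libraries 1, 2 and 3. A few genes carried much of the sum. The first 3 by count held 26.5% of it and the first 20 held 53.9%. Gene lengths were not matched to the identifiers, so this order is one of counts and not of transcripts.

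Near silence in control was not complete absence for most of these genes. No count in any control library was found for 11 genes, 1 to 3 counts over the 3 libraries for 21, 4 to 10 for 44 and more than 10 for 72. The highest single control value was 1.88 CPM. For the 137 genes with any control count, the ratio of strain means ran from 3.73 to 939 with a median of 20.0. It was above 100 for 24 genes, from 10 to 100 for 76 and at or below 10 for 37. Control levels showed little relation to CDK-2gut(-) levels within the list, with a Spearman rho of -0.027 across the 148 genes, which share their libraries and were cut at 1 CPM.

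Among the 11 genes with no control count, the level in CDK-2gut(-) ranged from 4.07 to 15.2 CPM. The gene in row 1067 was the highest of them, with 16.9, 13.5 and 15.3 CPM in CDK-2gut(-) libraries 1, 2 and 3. Against a floor of 3 counts over all control libraries, which is 0.0995 CPM, it was at least 153-fold higher. The gene in row 34950 followed with 13.4, 12.8 and 10.4 CPM, at least 122.4-fold higher. Rows 43817, 39068 and 1003 had means of 7.67, 7.38 and 5.76 CPM and bounds of 77.1-fold, 74.2-fold and 57.9-fold. The lowest bound of the 11 was 40.9-fold. These bounds cover counting error only.

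The gene with the most counts was WBGene00008960 in row 27920. It was at 0.318, 0.844 and 0.598 CPM in control libraries 1, 2 and 3, from 18 counts in all, and at 277, 282 and 271 CPM in CDK-2gut(-) libraries 1, 2 and 3. No other member was counted as often, and its CDK-2gut(-) values had a coefficient of variation of 1.98%. Its control mean was 0.586 ± 0.263 CPM (SD, n = 3), against 277 ± 5.47 CPM (SD, n = 3) in CDK-2gut(-). WBGene00008961, in row 27919, was at 0.424, 0 and 0.0996 CPM in control and at 161, 177 and 154 CPM in CDK-2gut(-). Its control level rests on 5 counts. In row 27921, on the other side of WBGene00008960, the gene was at 0.212, 0.188 and 0.0996 CPM in control and at 44.9, 53.3 and 38.3 CPM in CDK-2gut(-). These 3 adjacent rows have consecutive identifiers, and in every CDK-2gut(-) library the middle row was highest. The rows around them were nearly empty: in the 5 rows from 27914 to 27918 and the 5 from 27922 to 27926, CDK-2gut(-) had 0 counts throughout. In control, row 27917 had 51 counts, nearly all from control library 1 at 5.30 CPM.

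Away from that run, the gene in row 8251 was at 0.424, 0.188 and 0.0996 CPM in control and 96.0, 90.5 and 95.001 CPM in CDK-2gut(-). The gene in row 33836 was at 0.424, 1.22 and 0.0996 CPM in control and 77.6, 72.7 and 84.6 CPM in CDK-2gut(-). Both were close to constant among CDK-2gut(-) libraries and far above every control library. Row 25331 had only 2 control counts and 40.6, 40.4 and 54.1 CPM in CDK-2gut(-), a pooled ratio of 669 with a 95% exact counting interval of 185 to 5527. Row 41802 had 3 control counts and 30.4, 34.7 and 41.2 CPM in CDK-2gut(-), a pooled ratio of 350 with an interval of 119.4 to 1698. Row 39021 had 1 control count and 14.2, 22.2 and 27.9 CPM, and its pooled ratio of 621 has an interval of 111 to 24573. With so few control counts the size of these ratios is poorly set, while the CDK-2gut(-) levels rest on 819 to 1763 counts. The remaining 12 of the first 20 had means from 21.04 to 40.0 CPM in CDK-2gut(-), and the other 128 members lay below them, at 20.8 CPM or less.

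**Figure D2:**
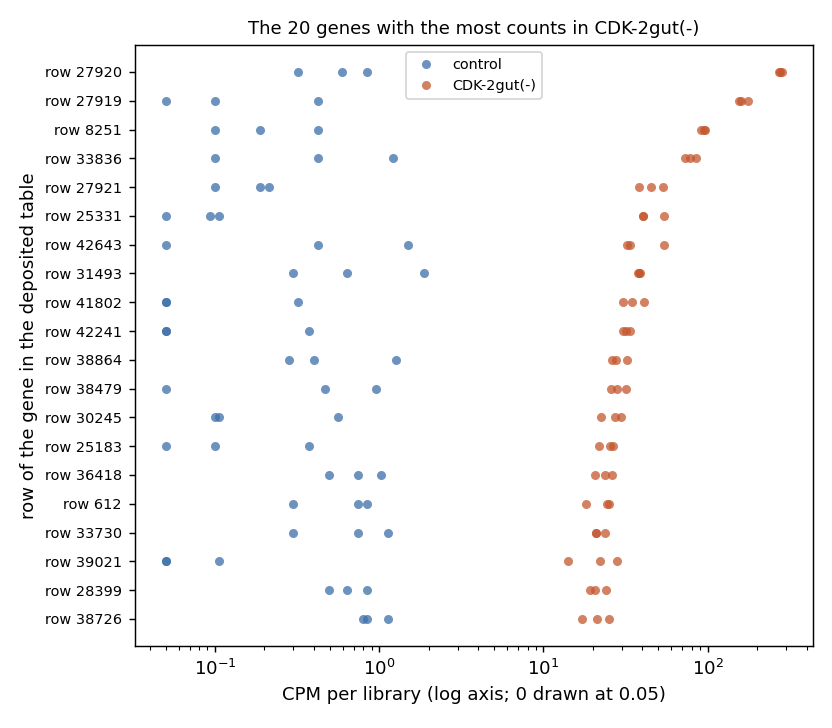
CPM per library (log axis, 0 drawn at 0.05) of the 20 genes with the most counts in CDK-2gut(-), named by their row in the deposited table. Each row has 3 control points and 3 CDK-2gut(-) points; the strain means of row 27920 are 0.586 and 277 CPM, and those of row 38726, the last shown, are 0.923 and 21.04 CPM.

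Residual counts were found in all 3 control libraries. Control library 2 had the highest sum, and 26 of the 148 genes exceeded 1 CPM there, against 22 in control library 1 and 7 in control library 3. Genes with 0 counts numbered 41, 29 and 45 in control libraries 1, 2 and 3. The order of the genes was only loosely shared among control libraries, with Spearman rho from 0.37 to 0.48 over the 148 genes. At a median of 2 or 3 counts per gene, counting error is large in these values.

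Among the CDK-2gut(-) libraries the order was closely shared. Spearman rho was 0.85 to 0.87 over the 148 genes. Log2 CPM correlated at 0.93 to 0.94 (Pearson) across the 148 genes, which include a wide range of levels. The highest CDK-2gut(-) value was at most 1.5 times the lowest for 100 genes and more than 2 times for 6, with a median ratio of 1.37. No library was high throughout: libraries 1, 2 and 3 were the highest for 53, 51 and 44 members. Over the 4991 other C. elegans genes with at least 3 CPM in each CDK-2gut(-) library and a mean below 300 CPM, library 1 was the highest for 54.8%, library 2 for 28.2% and library 3 for 17.1%. The requirement of 3 CPM in every library acts on both sets.

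The spread between CDK-2gut(-) libraries was similar to that of other genes of like level, and a little lower above 5 CPM. Members at 5 to 10 CPM had a median coefficient of variation of 18.7%, against 20.1% for 1418 other genes, where counting error alone gives 10.6% and 10.5%. Members at 10 to 30 CPM had 13.2% against 15.8% for 1745 others. At 3 to 5 CPM the values were 17.99% and 17.0%. At 30 to 300 CPM they were 7.44% for 10 members and 9.48% for 1380 others. Spread passed the 95th percentile of counting error (chi-square per gene) for 44.6% of members and 63.1% of the 4991 others, whose levels were not matched. The most even gene was in row 31493, with 37.7, 38.9 and 38.1 CPM and a coefficient of variation of 1.62%. Its control values were uneven, at 0.636, 1.88 and 0.299 CPM. The least even was in row 40222, with 4.54, 8.99 and 3.55 CPM and 50.9%. Row 38644 had 9.64, 20.4 and 29.0 CPM (49.3%) and row 4958 had 19.6, 8.51 and 11.2 CPM (44.2%). These 3 genes do not share the library in which they were highest.

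**Figure D3:**
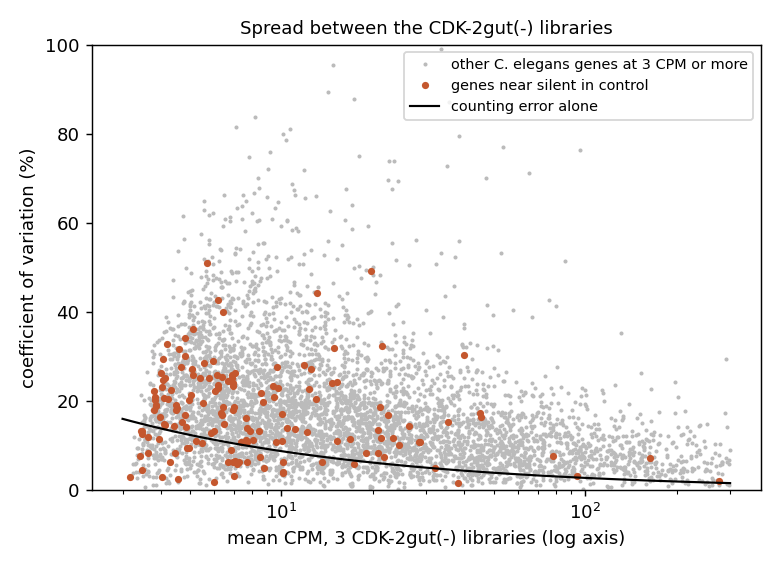
Coefficient of variation over the 3 CDK-2gut(-) libraries against mean CPM there (log axis), for the genes near silent in control (orange) and other C. elegans genes with at least 3 CPM in each CDK-2gut(-) library (grey). The line is the spread from counting alone, and 16 grey points lie above 100%. Orange points lie among the grey ones, with medians of 18.7% and 20.1% at 5 to 10 CPM.

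The limits of the rule cut through a continuum. Just inside the control limit lay a gene at 0.991 CPM in control and 10.2 CPM in CDK-2gut(-), followed by genes at 0.991 and 0.986 CPM. Just outside lay genes at 1.00, 1.00 and 1.03 CPM in control and 5.22, 17.8 and 5.50 CPM in CDK-2gut(-). At the other limit, the lowest CDK-2gut(-) values inside were 3.016, 3.022 and 3.024 CPM and the nearest outside were 2.961, 2.961 and 2.927 CPM, a difference of about 1 count. Of the 3674 eligible genes with at least 3 CPM in each CDK-2gut(-) library, the control mean was below 0.1 CPM for 30, from 0.1 to 0.3 CPM for 33, from 0.3 to 1 CPM for 85, from 1 to 2 CPM for 178 and from 2 to 3 CPM for 254. The members are thus 4.03% of these genes, the lower tail of a distribution with no gap at 1 CPM.

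The reverse rule, a CDK-2gut(-) mean below 1 CPM with at least 3 CPM in each control library, gave 14 genes. These were 0.511% of the 2740 eligible genes with at least 3 CPM in each control library. WBGene00011673 had the most control counts, at 9.44, 12.6 and 23.4 CPM in control libraries 1, 2 and 3 and 1.07, 0.875 and 0.798 CPM in CDK-2gut(-). WBGene00021491 was at 10.2, 12.6 and 12.6 CPM in control and 0.504, 0.477 and 0 CPM in CDK-2gut(-). The highest control mean on this side was 15.1 CPM, against 277 CPM for the highest CDK-2gut(-) mean among the 148, a longer list. Medians lay closer together. Over the 14 genes the median was 5.09, 5.72 and 7.27 CPM in control libraries 1, 2 and 3. Over the 148 it was 6.83, 7.12 and 6.70 CPM in CDK-2gut(-) libraries 1, 2 and 3. A mean below 0.3 CPM in the strain of low level was seen for 63 of the 148 genes and for 0 of the 14. Control library 3 held the largest sum of the 14 genes, 126 CPM, against 87.8 and 102 CPM in control libraries 1 and 2. CDK-2gut(-) libraries 1, 2 and 3 held 10.7, 7.16 and 9.49 CPM. Without control replicate 3 the reverse rule gave 22 genes.

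**Figure D4:**
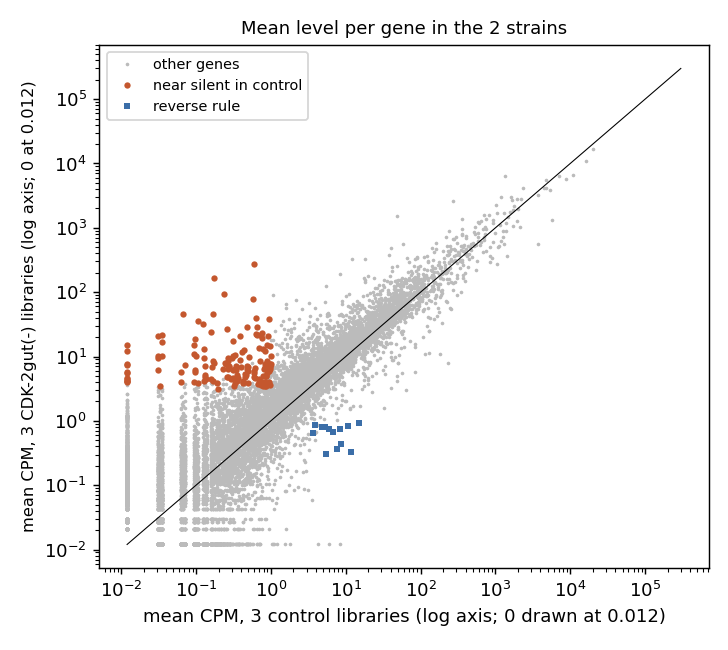
Mean CPM of each eligible C. elegans gene in the 3 control (horizontal) and 3 CDK-2gut(-) libraries (vertical), on log axes with 0 drawn at 0.012 and the line of equal means. The 148 genes near silent in control (orange) stand apart only by the limits of the rule, and 14 genes meet the reverse rule (blue).

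The imbalance of 148 against 14 depended in part on how libraries were scaled. The 10 C. elegans genes with the most counts took 63.4% of counts in control and 55.1% in CDK-2gut(-), so all other genes together took a larger share in CDK-2gut(-). Whether this shift bears on the imbalance was not tested. With TMM library sizes the rule gave 107 genes and the reverse rule 20. All of the 107 belong to the 148. With sizes from the P. pacificus counts there were 147 and 14 genes, of which 138 belong to the 148. Thinning every library to the smallest C. elegans total gave 141 and 14. In P. pacificus rows, scaled by their own totals, 0 genes met the rule in either direction, of 5299 with at least 3 CPM in each CDK-2gut(-) library and 5406 with that level in each control library. There 3 CPM is 5.29 to 12.2 counts, and the earlier assignment of these rows to P. pacificus rested on small differences between strains in them, so that few genes could meet the rule. The forward rule gave 141 to 175 genes when single libraries were left out, and 170 without replicate 3 of both strains, of which 135 belong to the 148.

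All 148 genes passed the filter on low counts, through their level in CDK-2gut(-), so the values of the fits across all genes are given as a description. In the composition fit (edgeR quasi-likelihood test with TMM scaling over C. elegans genes), 136 of the 148 were called higher at an adjusted p under 0.05, where 11.8% of the 8309 genes tested were called higher. In the fit scaled to P. pacificus counts, 142 were called higher, where 16.4% of all genes were. None was called lower in either fit, where 6.84% and 2.47% of all genes were. The rule used this contrast, so these counts carry no information beyond it. The median log2 fold of the 148 was 4.17 in the composition fit and 4.64 in the scaled fit, and the medians over all genes were 0.10 and 0.55. These medians include the genes with no control count, whose fitted folds depend on a prior count. The composition fit left 12 of the 148 uncalled. Row 33914 is an example with uneven control values, which were 1.17, 0 and 0 CPM in control libraries 1, 2 and 3, against 9.07, 8.91 and 8.25 CPM in CDK-2gut(-). Row 38020 is an example with even ones, at 1.27, 0.656 and 0.996 CPM in control and 3.65, 4.06 and 3.19 CPM in CDK-2gut(-), and its log2 fold of 1.46 was the smallest of the 148. Both examples were picked after their values were seen. Of the 14 reverse genes, 13 were called lower in the composition fit and 12 in the scaled fit. They were chosen by the same contrast, so these counts too carry no information beyond the rule.

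The 148 genes were spread along the file from row 392 to row 46588, and some lay side by side. Another member was within 5 rows for 28 genes, which formed 11 pairs and 2 groups of 3, and 9 pairs were in adjacent rows. No source says that the rows run along chromosomes. The C. elegans rows were split into 10 equal blocks, and 8 of these held more than 200 genes with at least 3 CPM in each CDK-2gut(-) library. Members made up 1.91% to 6.94% of those genes. The largest share was in rows 37567 to 42262, with 29 members of 418 genes, and the smallest in rows 4696 to 9391, with 6 of 314. The other 2 blocks, rows 9392 to 18783, held 3 members of 34 such genes.

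Several groups of neighbours had similar levels and some did not. In rows 27739 and 27740 both genes had 1 control count, in control library 2, and means of 10.03 ± 1.11 and 20.8 ± 2.79 CPM (SD, n = 3) in CDK-2gut(-). In rows 1067 and 1068 the means were 15.2 ± 1.68 and 20.8 ± 1.72 CPM (SD, n = 3), with 0 and 0.385 CPM in control. In rows 1002 and 1003 they were 16.8 ± 1.93 and 5.76 ± 1.45 CPM (SD, n = 3). The pair in rows 43199 and 43200 had equal means, 4.83 and 4.83 CPM, but unlike values by library. Row 43199 was at 3.21, 6.04 and 5.23 CPM in CDK-2gut(-) libraries 1, 2 and 3, and row 43200 at 5.73, 4.13 and 4.61 CPM. Rows 27585, 27587 and 27588 held a group of 3 members at 4.07, 6.39 and 6.94 CPM. The row between them, 27586, was not silent in control: it was at 516, 451 and 646 CPM there and at 1045, 1004 and 1039 CPM in CDK-2gut(-). That row and the row pairs named here were picked after their values were seen. Whether counting used strand is not stated and gene positions were not used here, so reads shared by overlapping genes cannot be told apart from reads of each gene.

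Genes listed beside the members were not chosen by their values, apart from the removal of members, so their calls in the fits are given. A neighbour with few or no control counts passes the filter on low counts only through CDK-2gut(-), as the members did. Within 5 rows, 58 neighbours had a control mean below 1 CPM and a CDK-2gut(-) mean of 1 to 3 CPM. How many of the calls below come from such neighbours was not counted. Within 5 rows on either side lay 1336 other genes. Of these, 585 had no count in any library, and 361 passed the filter on low counts. In the composition fit 75 of the 361, or 20.8%, were called higher in CDK-2gut(-), against 11.8% of all genes tested (edgeR quasi-likelihood test, adjusted p under 0.05). Another 22, or 6.09%, were called lower, against 6.84% of all. The shares over all genes include the 148, of which 136 were called higher, so the share called higher among non-members is below 11.8%. In the fit scaled to P. pacificus counts, 103 were called higher, or 28.5% against 16.4%, and 7 lower. Only 1 of the 75 met the limits of the rule itself and had been left out by its identifier. At least 1 such higher neighbour was found for 66 of the 148 members and a lower one for 21, and 21 members had no tested neighbour within 5 rows. How often other genes have a called neighbour was not counted, so the numbers of members with one are a description only.

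The share called higher was greatest in the nearest rows. Directly adjacent to a member, 29 of 89 tested genes were called higher (32.6%) and 2 lower, with a median log2 fold of 0.80. At a distance of 2 rows it was 21 of 70 (30%). At 3 to 5 rows it was 25 of 202 (12.4%), close to the share over all genes, members included. Beyond 500 rows it was 36 of 485 (7.42%). The share within 5 rows fell to 12.95% without control replicate 1, to 11.7% without CDK-2gut(-) replicate 2 and to 11.1% without CDK-2gut(-) replicate 3. In those fits the share over all genes also fell, to 6.28%, 5.99% and 5.81%. It was 16.8% against 8.47% without replicate 3 of both strains.

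**Figure D5:**
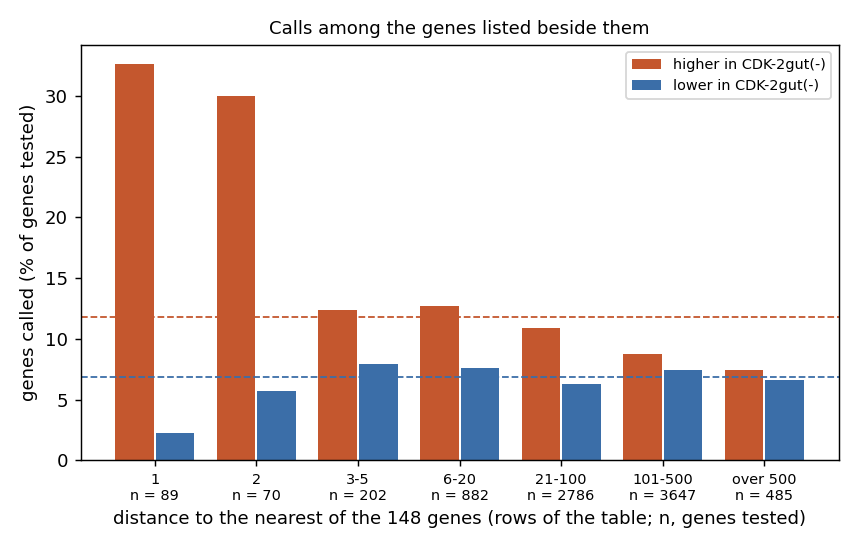
Share of tested genes called higher (orange) or lower (blue) in CDK-2gut(-) in the composition fit, by distance in rows to the nearest of the 148 genes, which are themselves left out. Dashed lines are the shares over all genes tested, with the 148 included, 11.8% and 6.84%. The share called higher is 32.6% at 1 row and 12.4% at 3 to 5 rows.

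The neighbours with the largest fitted changes were all higher in CDK-2gut(-). Row 27584, next to a member, was at 0.424, 0 and 0.199 CPM in control and 542, 589 and 719 CPM in CDK-2gut(-). It had 6 counts in control and is the neighbour that met the limits of the rule, so its values are a description with no test. It had more counts in CDK-2gut(-) than any member. Row 22358, 3 rows from a member, was at 1.27, 3.00 and 1.69 CPM in control and 567, 466 and 504 CPM in CDK-2gut(-), a rise of 7.60 ± 0.30 on the log2 scale (SE; adjusted p = 1.04e-05 from edgeR). The member near it, in row 22361, reached only 10.2 ± 0.653 CPM (SD, n = 3). Row 22358 was called in each of the 6 fits that left out a library. Only CDK-2gut(-) worms carried the asp-1p::vhhGFP4::zif-1 transgene. Identifiers are not paired with symbols, so whether reads of that transgene fall in row 22358 was not tested. Its rise is therefore not read as a change of the worm's own gene, though the row is counted among the neighbours called higher. The other 3, in rows 33344, 41801 and 20440, had no control counts and means of 3.64, 2.66 and 2.60 CPM in CDK-2gut(-). They were at least 36.6-fold, 26.7-fold and 26.1-fold higher against the floor of 3 counts over the control libraries. They passed the filter on low counts through CDK-2gut(-) alone, so no p-value is given for them.

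Of the 14 reverse genes, 3 lay within 5 rows of each other, in rows 45319, 45320 and 45322, and none lay within 20 rows of a member. Their control means were 7.53 ± 4.26, 6.03 ± 1.69 and 15.1 ± 7.33 CPM (SD, n = 3), highest in control library 3 for each. Their CDK-2gut(-) means were 0.363, 0.753 and 0.915 CPM. The gene between them, in row 45321, went the other way, from 55.7 ± 21.4 CPM in control to 164 ± 37.2 CPM in CDK-2gut(-) (SD, n = 3). The rise of 1.11 ± 0.31 on the log2 scale (SE; adjusted p = 0.0411 from edgeR) was a call that was lost in 5 of the 6 composition fits that left out a library, while it was kept in all 6 with scaling to P. pacificus counts.

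Among the rows left out by identifier, 45 also met both limits, or 2.66% of the 1690 such rows with at least 3 CPM in each CDK-2gut(-) library. Their CDK-2gut(-) means ran from 3.32 to 617 CPM with a median of 6.79 CPM, close to the median of 6.87 CPM among the 148.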

How the data were processed

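The deposited table holds raw counts, in whole numbers and not normalized, for the genes of both species. It leaves out reads that map to several places, per its name. The submitters' processing notes name STAR and featureCounts. Versions, builds, annotation and strand setting: not given in the sources used here. The last 26310 rows were taken as P. pacificus and those before as C. elegans, with a boundary taken over from an earlier inference on these same counts and not derived again here. The smallest library held 9432973 C. elegans counts and the largest 15874554, and for P. pacificus the range was 1761793 to 4060591. Intervals and floors cover counting error only.

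Members, lists and rules were chosen with earlier results of these data known. The rule for named genes took members by mean CPM in CDK-2gut(-), by absence in control, by spread and by nearness to the limits, with 2 identifiers per direction, and the 5 called neighbours with the largest fold. Marker lists fixed by symbol could not be matched.

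The fits were edgeR 4.0.16 robust quasi-likelihood tests (R 4.3.3) over genes kept by filterByExpr, with Benjamini-Hochberg adjustment. They were also run on simulated counts of the kept genes, with a common spread for all of them. That run did not cover rows below the filter or spread that differs by gene, and nothing here rests on it. DESeq2 1.42.0 was an alternative. The p-values reflect only how libraries of a strain differ, and that spread may be technical. Standard errors were taken from the log2 fold and its F value. Libraries of a strain differed by 12.2 to 65.4 times counting error (chi-square per degree of freedom), so none was taken as deposited again under another name.

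For pairing, deviations from strain means of same-numbered libraries correlated at 0.57, 0.58 and 0.85 over P. pacificus genes and at 0.12, -0.05 and 0.21 over C. elegans genes. Over P. pacificus genes the 2 mismatched combinations of numbers 1 and 2 gave 0.56 and 0.57, close to the matched ones, so only number 3 is distinguished. Over C. elegans genes the mismatched combinations ran from -0.44 to 0.42, a range that holds every matched value, so no number is distinguished there. The fit with the number as a block was run on both scales as an alternative; the labels state no pairing.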

Additional observations from a re-analysis of the deposited data

How the results depend on the processing

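Of the alternatives, those without replicate 3 of both strains were chosen after the data were seen. A silent limit of 0.5 CPM gave 95 members and 4 reverse genes, a limit of 2 CPM gave 326 and 34, a required level of 2 CPM gave 249 members, and one of 5 CPM gave 86 and 6, as stricter limits must give fewer. Leaving out single libraries gave 141 to 175 members, 15 to 22 reverse genes, 103 to 139 members called in the composition fit and 116 to 142 in the scaled fit. It gave 507 to 1105 genes called higher and 267 to 742 lower in the composition fit, 706 to 1317 higher and 109 to 246 lower in the scaled fit, and 11.1% to 21.4% of neighbours called higher. Plain totals gave 1830 higher and 300 lower in the composition fit and 710 higher and 1.2e+02 lower in the scaled fit. Without replicate 3 of both strains the composition fit called 374 lower. With no filter on low counts 13.4% of neighbours were called higher, against 7.08% of all genes, and with a window of 1 row 32.6%. The difference in summed CPM between strains was 1957 by plain totals, 1685 with TMM sizes and 2059 with P. pacificus sizes. Where a limit or window sets the count by its own construction the cause is plain; for the other shifts the cause was not tested.

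With the replicate number as a block, 130 members were called in the composition fit and 140 in the scaled fit, and 19.9% of neighbours were called higher. The block changed no other count by more than 1.5 times. Counts of 2 or 3 per gene in control limit what can be said of the size of single ratios.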
